A study of Arabidopsis thaliana with 24 samples.

Results

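The 7 HSP90 genes and the 3 Hop genes of Arabidopsis thaliana were followed in polysome-bound mRNA. They were chosen by locus identifier, as the whole annotated HSP90 family and the co-chaperone that joins it to HSP70, and make up 10 of the 32833 genes in the count table. All 10 passed the filter on low counts in every comparison.

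HSP90 is an ATP-driven chaperone that works as a dimer and completes the folding or activation of client proteins such as kinases, receptors and transcription factors. Clients reach it from HSP70 through Hop, an adaptor whose tetratricopeptide repeats hold the carboxy-terminal tails of both chaperones. In plants HSP90 also holds heat shock factors inactive until stress, and it stabilises immune receptors together with SGT1 and RAR1. HSP90.1 is known as the heat-inducible cytosolic form and HSP90.2, HSP90.3 and HSP90.4 as the constitutive ones. HSP90.5 works in the chloroplast, HSP90.6 in the mitochondrion and HSP90.7 in the endoplasmic reticulum (ER).

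Whole seedlings aged 9 days were either wild type (Col-0) or exa1-1, a mutant line of the GYF-domain protein gene EXA1. They had grown on 1/2 MS with sucrose, and a treatment of 60 min was given in a salt and in a heat experiment with separate controls. In the salt experiment wild-type and exa1-1 seedlings were kept on MS or moved to MS with 200 mM NaCl. In the heat experiment wild-type and exa1-1 seedlings were kept at 23 °C or brought to 39 °C. There were 8 groups with 3 independent replicates each. A value is the abundance of a message among polysomes. Total RNA was not analysed here, so the amount of a transcript and its ribosome loading cannot be told apart. In whole seedlings, a change in the number of cells of a type and a change in RNA per cell also cannot be told apart.

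Total counts per library ran from 17861136 to 20629439. EXA1, the check of the genotype labels, lay between 9.17 and 18.6 FPKM in the wild-type libraries and between 0.913 and 1.70 FPKM in the exa1-1 libraries, and was lower in exa1-1 under all 4 conditions. Levels are FPKM (fragments scaled to gene length and library total) divided by the library's TMM factor, a scaling that equalises most genes between libraries. Replicate 3 of exa1-1 in MS stood apart for the near-identical genes HSP90.2, HSP90.3 and HSP90.4, with the lowest level of its group for each, and results for these 3 genes that use it are given without it as well. Summed root marker levels (9 genes) went in salt from 105.6 to 111.1 FPKM down to 36.3 to 38.7 FPKM in wild type, and from 127.6 to 132.9 down to 33.9 to 38.0 FPKM in exa1-1. In heat they went from 72.9 to 73.6 down to 28.6 to 30.8 FPKM in wild type, and from 80.8 to 87.8 down to 32.3 to 33.4 FPKM in exa1-1. Summed shoot marker levels (7 genes) went from 7852 to 8266.5 up to 13306 to 13594 FPKM in wild-type salt and from 5357.5 to 5782.5 up to 7153.6 to 7323.9 FPKM in exa1-1 salt. They went from 22112 to 22701 up to 39793 to 40514 FPKM in wild-type heat and from 19405 to 20232 up to 32323 to 33602 FPKM in exa1-1 heat. Not every marker followed its sum: 2 of the 9 root markers were called higher in salt and 2 of the 7 shoot markers lower, in both genotypes. In heat 1 root marker was called higher in each genotype, and 2 shoot markers were called lower in wild type and 1 in exa1-1. Of all genes, 35.4% to 37.2% were called in each direction in salt and 38.0% to 42.3% in heat. No marker was at 0 in all libraries of a group, and the part of these shifts in the results on HSP90 and Hop was not tested.

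The genes lie on all 5 chromosomes (coordinates from RefSeq, TAIR10.1). HSP90.4 (AT5G56000, chr5:22677338-22680152, minus strand), HSP90.3 (AT5G56010, chr5:22681238-22684252, plus strand) and HSP90.2 (AT5G56030, chr5:22686473-22689671, plus strand) lie close together, and HSP90.1 (AT5G52640, chr5:21352557-21355147, plus strand) lies apart from them. HSP90.5 is AT2G04030 (chr2:1281754-1286144, plus strand), HSP90.6 is AT3G07770 (chr3:2478887-2484282, plus strand) and HSP90.7 is AT4G24190 (chr4:12551552-12556058, minus strand). Hop1 is AT1G12270 (chr1:4172035-4174730, plus strand), Hop2 is AT1G62740 (chr1:23230922-23233543, plus strand) and Hop3 is AT4G12400 (chr4:7338018-7341363, minus strand). The organellar forms have many exons (19 in HSP90.5, 20 in HSP90.6 and 15 in HSP90.7), and the cytosolic forms 3 or 4.

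The ends of the coding sequences show both how the forms differ and how alike the clustered ones are. The last 60 coding bases are printed 5′ to 3′ from RefSeq TAIR10.1, with the last 5 codons before the stop in capitals. In the cytosolic genes these codons encode the tail peptide that Hop binds, and in HSP90.7 they hold the ER retention signal.
HSP90.1: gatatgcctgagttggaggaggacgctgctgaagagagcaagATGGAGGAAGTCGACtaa
HSP90.2: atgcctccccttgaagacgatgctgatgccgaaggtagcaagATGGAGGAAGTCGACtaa
HSP90.3: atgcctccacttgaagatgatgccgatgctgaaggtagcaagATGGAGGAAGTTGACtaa
HSP90.4: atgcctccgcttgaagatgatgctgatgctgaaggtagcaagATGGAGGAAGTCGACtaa
HSP90.7: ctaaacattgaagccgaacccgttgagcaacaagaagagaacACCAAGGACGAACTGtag
They end at chr5:21355088-21355147, chr5:22689374-22689433, chr5:22683852-22683911, chr5:22677602-22677661 (minus strand) and chr4:12551902-12551961 (minus strand), in that order.

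Over the whole coding sequence HSP90.2 and HSP90.3 were 95.7% identical, HSP90.3 and HSP90.4 95.4%, and HSP90.2 and HSP90.4 94.3%. HSP90.1 was 78.9% to 79.4% identical to these, and the Hop genes were 75.6% to 82.5% identical to each other. Of all windows of 100 bases in a transcript, the share that occurs unchanged in another member was 8.98% in HSP90.2, 10.8% in HSP90.3 and 5.36% in HSP90.4. With windows of 50 bases it was 22.8%, 23.9% and 18.7%, with windows of 150 bases 4.11%, 4.95% and 1.57%, and in the other 7 members it was 0. The read length is not given in the sources used here. Values of HSP90.2, HSP90.3 and HSP90.4 are therefore uncertain, since how reads from these stretches were counted is not given in the sources used here and their part in the levels was not tested.

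Promoter motifs were searched on both strands. The heat shock element, searched as GAA, TTC and GAA with 2 free bases between them, is bound by heat shock factors. It was found within 1000 bases before the translation start in 2 of the 10 members, against 2.02% of 27443 genes. The members were HSP90.1 and Hop3. This window was added after the shorter one given below, which held the element in 0 of the 10. The ER stress element, searched as CCAAT, 10 free bases and CACG, was found in 1 member, HSP90.7, against 1.62% of genes. The stretches are printed with the motif in capitals, on the strand of the gene.
HSP90.1: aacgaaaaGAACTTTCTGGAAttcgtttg
Hop3: aaaaattcGAAATTTCGAGAActctcttg
HSP90.7: ttgctCCAATACAAAACTACCACGtggct
They lie at chr5:21352254-21352282, chr4:7341319-7341347 (minus strand) and chr4:12556057-12556085 (minus strand). The motif begins 295 bases before the translation start in HSP90.1, 100 bases before it in Hop3, where the annotation already places transcript, and 229 bases before it in HSP90.7. In the 250 bases before the annotated gene start no member held the heat shock element, against 0.386% of genes, and HSP90.7 held the ER stress element, against 0.689%. For HSP90.1 the annotated transcript is the coding sequence alone (2103 bases), so its gene start is its translation start. The shorter window of HSP90.1 is therefore not known to lie before its transcript start. A match describes the letters in these windows and is no measured binding site.

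Before salt stress, HSP90.2 and HSP90.3 led, and HSP90.4, the other constitutive form, was next to last. In wild-type MS the mean levels were 189.2 ± 4.90 FPKM (SD, n = 3) for HSP90.2, 169.5 ± 5.73 for HSP90.3, 126.1 ± 1.253 for HSP90.7, 79.3 ± 1.91 for HSP90.5 and 47.7 ± 2.23 for HSP90.1, with no overlap of libraries between neighbours in this order. HSP90.6, Hop2 and Hop1 followed at 27.6 ± 1.13, 26.3 ± 1.87 and 25.2 ± 1.60 FPKM, and their libraries overlapped from one to the next. HSP90.4 at 17.7 ± 0.736 FPKM and Hop3 at 16.9 ± 0.624 FPKM closed the order and overlapped as well. In wild type at 23 °C, HSP90.2 was again highest at 58.3 ± 3.00 FPKM, HSP90.7 (51.2 ± 1.23) and HSP90.3 (49.96 ± 2.71) overlapped, and HSP90.1 at 6.71 ± 0.558 FPKM stood next to last, above Hop3 at 5.44 ± 0.490 FPKM.

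All 10 genes were lower at 23 °C than in MS, in both genotypes, although neither group was stressed by label. The share of genes called lower was 32.8% in wild type and 33.6% in exa1-1, and 33.3% and 33.1% were called higher. HSP90.1 differed most, by a log2 fold change of -2.83 (SE 0.053, adjusted p = 1.5e-49) in wild type and -2.33 (SE 0.053, adjusted p = 5.8e-45) in exa1-1. Hop1 differed least in wild type (-0.30, SE 0.063, adjusted p = 2.4e-05), and HSP90.4 least in exa1-1 (-0.43, SE 0.069, adjusted p = 1.7e-07). Without replicate 3 of exa1-1 in MS all 10 were still called lower in exa1-1, with HSP90.2 at -1.24, HSP90.3 at -1.32 and HSP90.4 at -0.53. Summed shoot markers stood higher at 23 °C (22112 to 22701 FPKM in wild type) than in MS (7852 to 8266.5 FPKM). Of the 7, 6 were called higher in both genotypes and 1 was called lower in exa1-1. Summed root markers stood lower at 23 °C (72.9 to 73.6 FPKM in wild type) than in MS (105.6 to 111.1 FPKM). Of these 9, 3 were called lower and 1 higher in wild type, and 4 and 1 in exa1-1. The part of both marker lists in the differences of the members was not tested. These controls belong to different experiments, and a difference in handling cannot be told apart from one in conditions. Scaled by library totals alone, 5213 genes were higher and 10013 lower in wild type and 4451 and 11362 in exa1-1, against 7289 and 7197, and 7256 and 7357, with TMM. The median of all genes then lay 0.22 and 0.31 lower on the log2 scale.

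**Figure D1:**
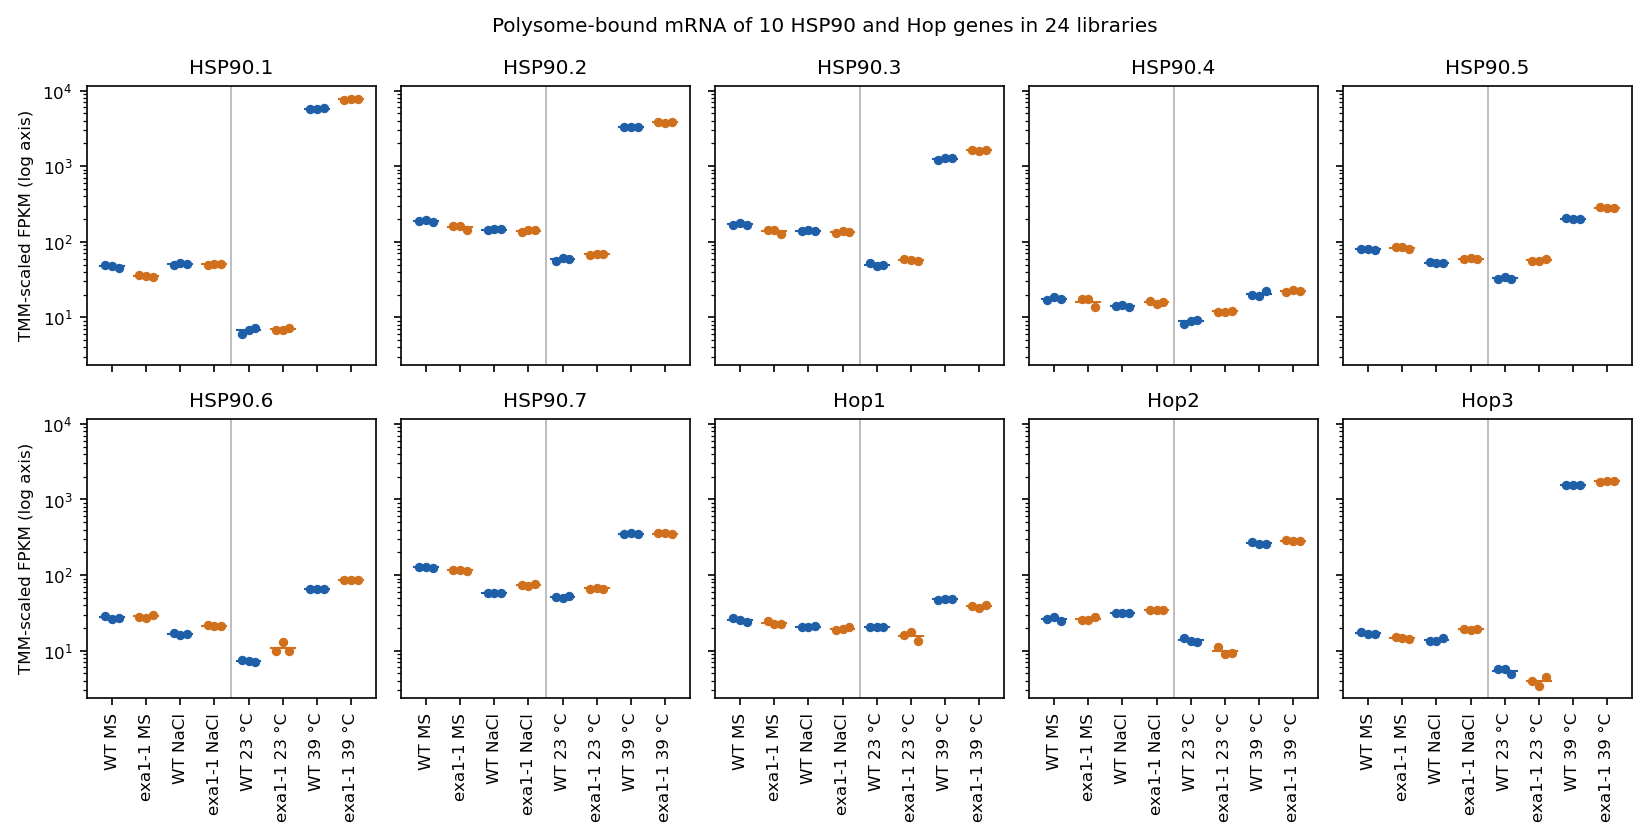
Level of each HSP90 and Hop gene in all 24 libraries, in TMM-scaled FPKM on a log axis. Points are libraries (blue, wild type; orange, exa1-1), bars are group means, and the vertical line parts the salt experiment (left) from the heat experiment (right). HSP90.1 goes from 6.10 to 7.19 FPKM at 23 °C to 5745 to 5796 FPKM at 39 °C in wild type, while HSP90.4 stays between 8.29 and 23.2 FPKM in the heat experiment.

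Heat raised every HSP90 and Hop gene in wild-type polysomes. The comparison asks how messages in polysomes change after 60 min at 39 °C. HSP90.1 rose 858-fold, Hop3 284-fold, HSP90.2 56.1-fold, HSP90.3 25.2-fold and Hop2 19.2-fold, while Hop1 and HSP90.4 rose 2.36-fold and 2.30-fold. All 10 of 10 members were called higher, against 38.2% of the 20923 genes tested, and 42.3% were called lower. The median log2 fold change was 3.71 over the members and -0.10 over all genes.

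Among the cytosolic forms, HSP90.1 stood at 6.10, 6.84 and 7.19 FPKM in the wild-type libraries at 23 °C and at 5745, 5753 and 5796 FPKM at 39 °C. The log2 fold change was 9.74 (SE 0.049, adjusted p = 7.3e-73, edgeR quasi-likelihood test with Benjamini-Hochberg adjustment over all genes tested), the 32nd largest rise of all genes tested. HSP90.2 stood at 54.9, 60.6 and 59.3 FPKM at 23 °C and at 3280, 3278 and 3260 FPKM at 39 °C (log2 fold change 5.81, SE 0.039). The RefSeq note on HSP90.2 describes a gene not induced by heat. In polysome-bound mRNA, which is not the amount of the transcript, every library at 39 °C was above every library at 23 °C. HSP90.3 went from 53.1, 48.2 and 48.6 FPKM to 1224, 1270 and 1281 FPKM (log2 fold change 4.65, SE 0.041). HSP90.4 went from 8.29, 8.87 and 9.35 FPKM to 19.9, 19.1 and 22.1 FPKM (log2 fold change 1.20, SE 0.077, adjusted p = 1.8e-20). Although these neighbours share nearly all of their coding sequence, HSP90.4 moved less than the others by a wide margin, and its libraries at both temperatures still did not overlap. At 39 °C it had 504 to 572 counts per library, against 99280 to 102850 for HSP90.2 and 34882 to 35735 for HSP90.3. The part of reads from shared stretches in its rise was not tested.

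The organellar forms all rose, HSP90.6 with the largest value and HSP90.5 with the smallest. Chloroplast HSP90.5 went from 32.3, 34.6 and 32.4 FPKM at 23 °C to 206.3, 201.7 and 200.1 FPKM at 39 °C, a log2 fold change of 2.61 (SE 0.043, adjusted p = 5.6e-48). Mitochondrial HSP90.6 went from 7.47, 7.24 and 6.99 FPKM to 64.4, 64.8 and 65.4 FPKM, a log2 fold change of 3.16 (SE 0.071, adjusted p = 5.7e-29). HSP90.7, the ER form that folds receptors and secreted proteins, went from 51.2, 49.96 and 52.4 FPKM to 345.3, 354.7 and 350.4 FPKM, a log2 fold change of 2.77 (SE 0.039, adjusted p = 2.4e-51). For all 3 the 39 °C libraries lay well above those at 23 °C, and the spread within groups was small beside the rise.

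The Hop genes parted widely. Hop3 stood at 5.66, 5.79 and 4.88 FPKM at 23 °C and at 1556, 1532 and 1559 FPKM at 39 °C, a log2 fold change of 8.15 (SE 0.055, adjusted p = 1.9e-64) and the 58th largest rise of all genes. Hop2 went from 14.8, 13.4 and 12.9 FPKM to 272.1, 258.7 and 259.3 FPKM (log2 fold change 4.26, SE 0.054). Hop1 went from 20.4, 20.5 and 20.3 FPKM to 47.3, 48.7 and 48.5 FPKM (log2 fold change 1.24, SE 0.066, adjusted p = 9.1e-24). The order of the Hop genes was thus turned round, from Hop1 highest and Hop3 lowest at 23 °C to Hop3 highest and Hop1 lowest at 39 °C, with no overlap between neighbours in either order.

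In exa1-1 all 10 members were also called higher at 39 °C, against 38.0% of genes called higher and 41.4% called lower. HSP90.1 stood at 6.76, 6.82 and 7.22 FPKM at 23 °C and at 7473, 7740 and 7813 FPKM at 39 °C, a log2 fold change of 10.11 (SE 0.050, adjusted p = 1.5e-73). Hop3 went from 4.01, 3.44 and 4.54 FPKM to 1714, 1736 and 1736 FPKM (log2 fold change 8.76, SE 0.057). The others lay between 0.90 (HSP90.4, SE 0.074, adjusted p = 3.9e-16) and 5.81 (HSP90.2, SE 0.039), in the same order as in wild type except that Hop2 (4.86) passed HSP90.3 (4.82).

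The scale of the heat response depends on the normalisation. TMM factors were 0.566 to 0.591 at 39 °C and 1.09 to 1.12 at 23 °C, and library totals alone put the median of all genes 0.90 lower in wild type and 0.96 lower in exa1-1 on the log2 scale. Then 3007 genes were called higher and 15476 lower in wild type, against 7999 and 8840 with TMM, and 2888 and 15679 in exa1-1, against 7961 and 8661. The log2 fold change of HSP90.1 was then 8.84 in wild type and 9.16 in exa1-1, and Hop1 was 0.33 and 0.34. HSP90.4 was 0.30 in wild type (adjusted p = 0.00046) and in exa1-1 changed sign to -0.058 (adjusted p = 0.46), so HSP90.4 was called higher in exa1-1 only with the scaling that equalises most genes. Its raw counts were 408 to 463 at 23 °C and 504 to 572 at 39 °C in wild type, and 583 to 650 and 540 to 589 in exa1-1.

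**Figure D2:**
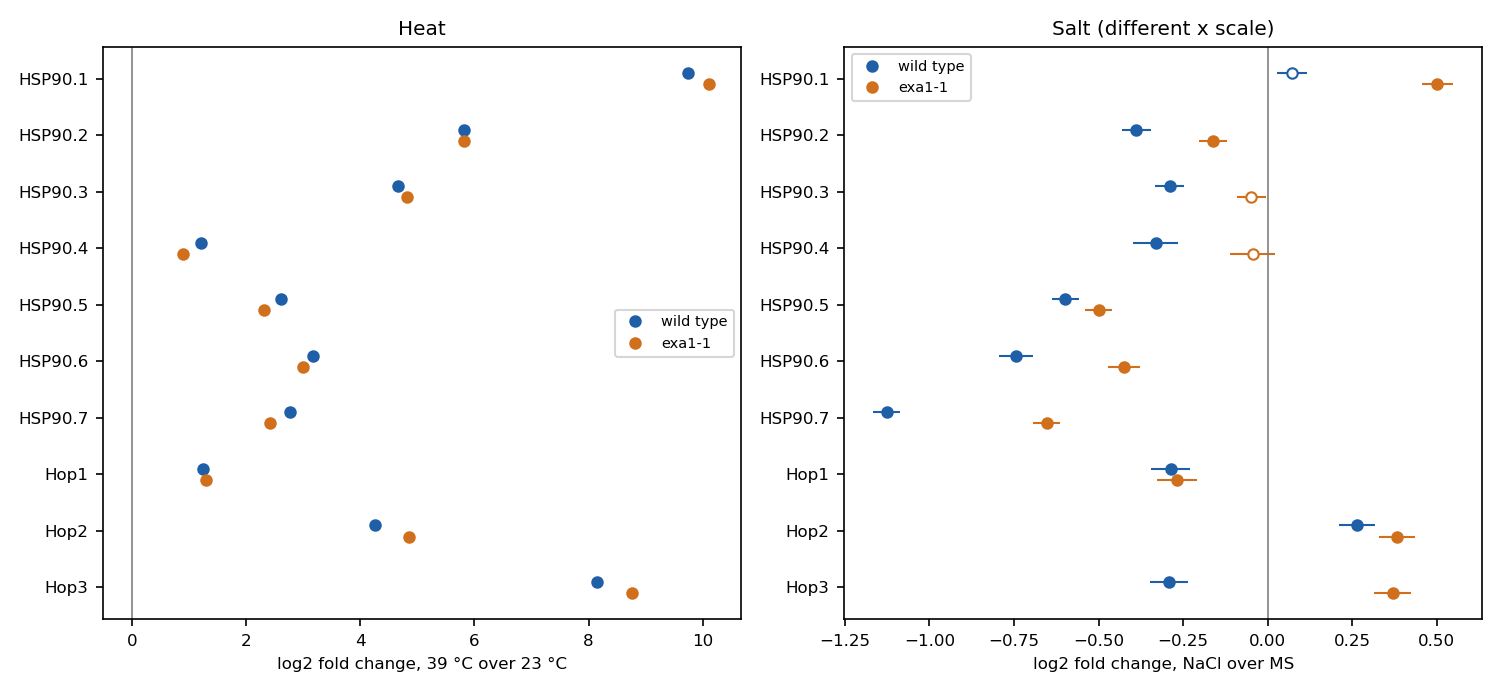
Log2 fold change of each gene in heat (left, 39 °C over 23 °C) and salt (right, NaCl over MS, on a different scale), with bars of 1 SE. Blue is wild type, orange is exa1-1, and open symbols did not pass the adjusted p threshold of 0.05. All 20 heat values lie above 0, from 0.90 to 10.11, and the salt values lie between -1.13 and 0.50.

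Heat also changed which genes supplied the messages. HSP90.1 made up 5.42 ± 0.402% of the summed FPKM of the 4 cytosolic HSP90 genes at 23 °C in wild type and 55.9 ± 0.116% at 39 °C. HSP90.3 went from 40.4 ± 2.60% to 12.2 ± 0.242%, and HSP90.4 from 7.13 ± 0.369% to 0.197 ± 0.0142%, in the same libraries. In exa1-1 the HSP90.1 share went from 4.81 ± 0.181% to 58.4 ± 0.608% (SD, n = 3 throughout). These shares do not depend on TMM, and no library at 39 °C overlapped one at 23 °C. No test was run on them, since groups of 3 against 3 cannot go below an exact permutation p of 0.1.

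Among the Hop genes, the Hop3 share in wild type went from 13.8 ± 0.885% at 23 °C to 83.3 ± 0.272% at 39 °C, and the Hop1 share from 51.6 ± 1.71% to 2.59 ± 0.0613%. In exa1-1 the Hop3 share went from 13.6 ± 2.60% to 84.2 ± 0.293%. The 10 genes together held 0.0759 ± 0.000713% of all counts in wild type at 23 °C and 1.86 ± 0.00612% at 39 °C, and 0.0934 ± 0.000889% and 2.22 ± 0.0163% in exa1-1. The ratio of summed cytosolic HSP90 to summed Hop FPKM was 3.13 ± 0.136 in wild type at 23 °C and 5.54 ± 0.0682 at 39 °C, and 4.89 ± 0.324 and 6.40 ± 0.0714 in exa1-1. The ratio was higher in every library at 39 °C than in any library of its genotype at 23 °C.

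**Figure D3:**
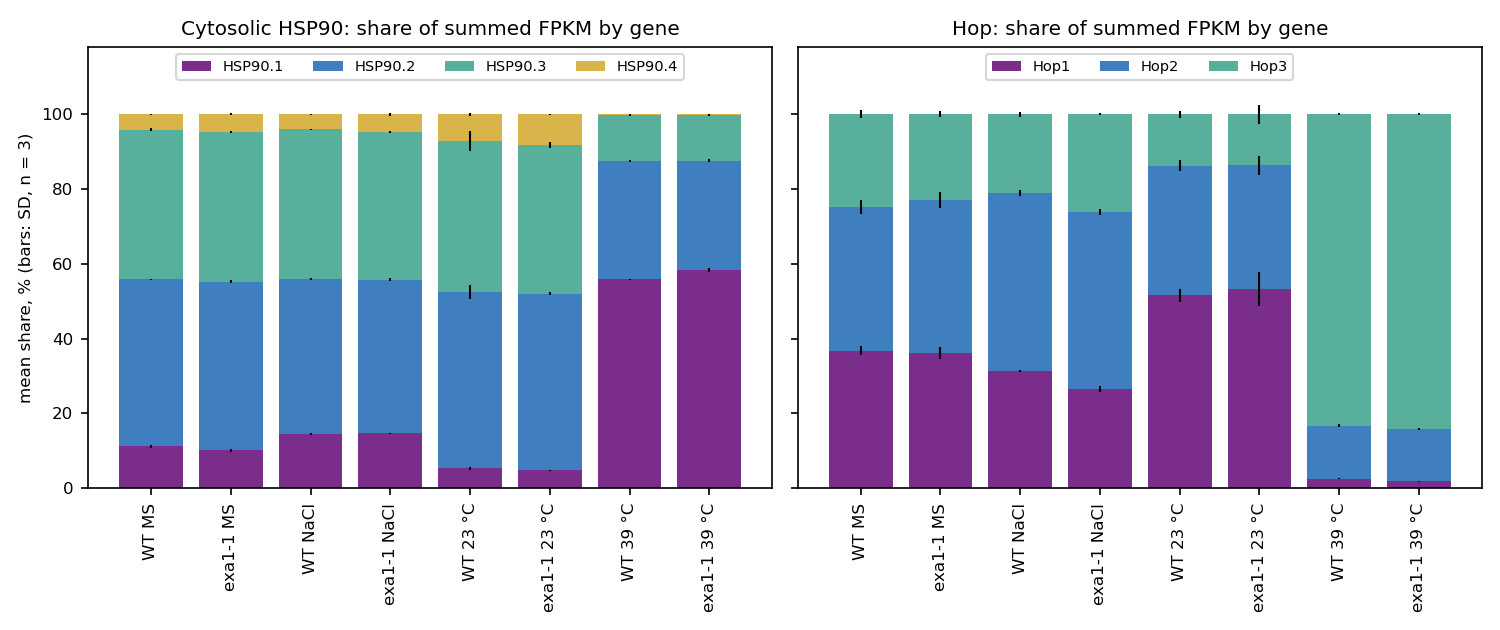
Mean share of each gene in the summed FPKM of the cytosolic HSP90 genes (left) and of the Hop genes (right), in percent, for the 8 groups, with bars of 1 SD (n = 3). At 39 °C HSP90.1 holds 55.9% and 58.4% of the cytosolic sum in wild type and exa1-1, and Hop3 holds 83.3% and 84.2% of the Hop sum.

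Salt moved the family less, and mostly down. The comparison asks how polysome messages change after 60 min on 200 mM NaCl. In wild type 8 of the 10 members were called lower and 1 higher, against 35.4% and 36.5% of the 21453 genes tested. The median log2 fold change was -0.31 over the members and 0.00 over all genes. Scaled by library totals alone, 6174 genes were higher and 9518 lower, against 7823 and 7584, and the median of all genes lay 0.15 lower. These 8 members were called lower on that scale too.

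The organellar forms fell furthest. HSP90.7 stood at 126.2, 127.3 and 124.8 FPKM in the wild-type MS libraries and at 57.87, 58.05 and 58.13 FPKM in NaCl. Its log2 fold change was -1.13 (SE 0.040, adjusted p = 2.8e-26), a 2.18-fold fall with a gap between the groups many times the spread within them. HSP90.6 went from 28.8, 26.6 and 27.4 FPKM to 17.2, 16.0 and 16.4 FPKM (log2 fold change -0.74, SE 0.049). HSP90.5 went from 81.2, 79.4 and 77.4 FPKM to 53.3, 51.8 and 52.8 FPKM (log2 fold change -0.60, SE 0.040). No NaCl library reached the lowest MS library for any of the 3.

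Of the cytosolic forms, HSP90.2 went from 189.4, 194.0 and 184.2 FPKM in wild-type MS to 143.9, 146.1 and 145.5 FPKM in NaCl (log2 fold change -0.39, SE 0.043, adjusted p = 1.4e-10). The RefSeq note names NaCl as an inducer of this gene, and after 60 min its level in polysomes was lower in every library. A polysome level is not the amount of the transcript, so the note and this value are not the same measure. HSP90.3 fell by 0.29 (SE 0.043) and HSP90.4 fell by 0.33 (SE 0.066) on the log2 scale, also without overlap. HSP90.1 stood at 49.5, 48.4 and 45.2 FPKM in MS and 48.6, 52.1 and 50.5 FPKM in NaCl, and its log2 fold change of 0.07 (SE 0.045, adjusted p = 0.15) did not pass. With its neighbours lower, the HSP90.1 share of the cytosolic sum was 11.3 ± 0.393% in MS and 14.4 ± 0.294% in NaCl.

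The Hop genes did not share a direction in wild-type salt. Hop1 went from 26.8, 25.2 and 23.6 FPKM to 20.4, 20.6 and 21.3 FPKM (log2 fold change -0.29, SE 0.058, adjusted p = 3.6e-05). Hop3 went from 17.7, 16.6 and 16.6 FPKM to 13.5, 13.5 and 14.7 FPKM (log2 fold change -0.29, SE 0.056, adjusted p = 1.3e-05). Hop2 went up from 25.9, 28.3 and 24.6 FPKM to 31.9, 31.3 and 31.8 FPKM (log2 fold change 0.26, SE 0.053, adjusted p = 2.5e-05). The Hop2 call is lost with library totals alone (0.12, adjusted p = 0.051).

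In exa1-1, 5 members were called lower and 3 higher in salt, against 37.2% and 35.9% of genes. HSP90.1 stood at 36.2, 34.98 and 33.8 FPKM in MS and at 49.7, 50.2 and 50.3 FPKM in NaCl, a log2 fold change of 0.50 (SE 0.046, adjusted p = 8.6e-13). Hop3 rose from 15.2, 14.6 and 14.2 FPKM to 19.1, 18.9 and 19.5 FPKM (log2 fold change 0.37, SE 0.054, adjusted p = 1.1e-07), and Hop2 rose by 0.38 (SE 0.052) on the log2 scale. Both groups were parted without overlap for all 3 genes. HSP90.7 fell from 118.2, 115.5 and 111.9 FPKM to 74.5, 72.4 and 75.1 FPKM (log2 fold change -0.65, SE 0.039), and HSP90.5, HSP90.6, HSP90.2 and Hop1 fell by 0.50, 0.42, 0.16 and 0.27 on the log2 scale. HSP90.2 was at -0.22 without replicate 3 of exa1-1 in MS.

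HSP90.3 (-0.05, adjusted p = 0.31) and HSP90.4 (-0.04, adjusted p = 0.55) did not pass in exa1-1 salt. They passed without replicate 3 of exa1-1 in MS, at -0.10 (adjusted p = 0.0045) and -0.15 (adjusted p = 0.024), and with library totals alone, at -0.22 each (adjusted p = 1.7e-06 and 0.0023). On that scale the median of all genes lay 0.17 lower, with 5850 genes higher and 10357 lower, against 7701 and 7971.

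The salt responses of the genotypes differed by test for 7 of the 10 members, each time with the higher value in exa1-1, against 10.6% of genes with a higher and 9.36% with a lower value. DESeq2 also called 7 higher and 0 lower, against 2168 higher and 1579 lower of 21453 genes. At an unadjusted p under 0.05 in the edgeR test 0 members were lower, and the share of all genes at that threshold was not counted. The difference of log2 fold changes (exa1-1 minus wild type) was 0.66 for Hop3 (SE 0.078, adjusted p = 1.7e-08), which fell in wild type and rose in exa1-1. It was 0.47 for HSP90.7 (SE 0.056, adjusted p = 1.7e-08) and 0.43 for HSP90.1 (SE 0.064, adjusted p = 2.6e-06). HSP90.6 (0.32), HSP90.4 (0.29), HSP90.3 (0.24) and HSP90.2 (0.23) also passed. HSP90.5 (0.10, SE 0.057), Hop2 (0.12, SE 0.074) and Hop1 (0.02, SE 0.083) did not pass. The HSP90.4 call was lost without replicate 2 of wild type in MS, replicates 1 or 3 of either genotype in NaCl, or replicate 3 of exa1-1 in MS, with values from 0.18 to 0.28. Without the latter library HSP90.4 was 0.18 (adjusted p = 0.10), HSP90.2 and HSP90.3 were 0.17 and 0.19 and still passed, and HSP90.1, HSP90.7 and Hop3 were 0.40, 0.45 and 0.64.

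The MS libraries enter both sides of this difference. In MS, 5 members were lower and 0 higher in exa1-1 than in wild type, against 19.5% and 16.5% of genes. At an unadjusted p under 0.05 in the edgeR test 1 member, HSP90.5 (0.09, adjusted p = 0.077), was higher. DESeq2 called 0 members higher, against 2955 of 21453 genes. HSP90.5 passed without replicate 3 of exa1-1 in MS (0.11, adjusted p = 0.0089), and HSP90.4 (-0.13, adjusted p = 0.13) passed without replicate 1 or 2 of that group (-0.18 each, adjusted p = 0.049 and 0.043) but stood at -0.02 (adjusted p = 0.80) without replicate 3. HSP90.1 stood at 49.5, 48.4 and 45.2 FPKM in wild type and at 36.2, 34.98 and 33.8 FPKM in exa1-1 (log2 fold change -0.44, SE 0.046, adjusted p = 4.1e-10). HSP90.2 and HSP90.3 were lower by a log2 fold change of -0.28 each (SE 0.043), and at -0.22 and -0.23 without replicate 3 of exa1-1 they still passed. Hop3 was lower by -0.20 (SE 0.054) and HSP90.7 by -0.12 (SE 0.039, adjusted p = 0.013). Scaled by library totals alone, 5717 genes were higher and 2951 lower, against 3535 and 4182, and the members were 3 lower and 2 higher. Hop3 (-0.12, adjusted p = 0.084) and HSP90.7 (-0.04, adjusted p = 0.37) then no longer passed, and HSP90.5 (0.17, adjusted p = 0.00033) and HSP90.6 (0.13, adjusted p = 0.028) passed as higher.

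In NaCl, 5 members were higher and 0 lower in exa1-1, against 15.3% and 17.1% of genes. DESeq2 called the same numbers of members, against 3080 higher and 3126 lower of 21453 genes. At an unadjusted p under 0.05 in the edgeR test 0 members were lower, and the share of all genes at that threshold was not counted. The 5 members called higher in the edgeR test were Hop3 (log2 fold change 0.46, SE 0.055, adjusted p = 9.4e-09), HSP90.6 (0.37, SE 0.050), HSP90.7 (0.35, SE 0.040), HSP90.5 (0.19, SE 0.041) and Hop2 (0.14, SE 0.052, adjusted p = 0.041). The cytosolic HSP90 genes did not pass, though HSP90.4 (0.16, adjusted p = 0.068) did without replicate 3 of exa1-1 in MS (0.16, adjusted p = 0.019), and HSP90.1 stood at 48.6 to 52.1 FPKM in wild type and 49.7 to 50.3 FPKM in exa1-1. The Hop2 call was lost when any NaCl library or replicate 1 of wild type in MS was left out, with values from 0.13 to 0.14. Scaled by library totals alone, 4608 genes were higher and 2878 lower, against 3281 and 3669.

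At 23 °C the HSP90 and Hop genes went opposite ways in exa1-1. HSP90 genes were higher in 6 of 7 cases and all 3 Hop genes were lower, against 17.1% of genes higher and 17.8% lower. HSP90.5 stood at 32.3, 34.6 and 32.4 FPKM in wild type and at 55.9, 55.0 and 59.6 FPKM in exa1-1, a log2 fold change of 0.78 (SE 0.042, adjusted p = 1.1e-21). HSP90.6 was higher by 0.59 (SE 0.076), HSP90.4 by 0.43 (SE 0.076), HSP90.7 by 0.37 (SE 0.038), HSP90.2 by 0.22 (SE 0.034) and HSP90.3 by 0.19 (SE 0.038) on the log2 scale. HSP90.1 at 0.04 (SE 0.059, adjusted p = 0.66) did not pass. Hop2 stood at 14.8, 13.4 and 12.9 FPKM in wild type and at 11.1, 9.06 and 9.37 FPKM in exa1-1 (-0.48, SE 0.064, adjusted p = 2.0e-08), Hop3 was at -0.45 (SE 0.071) and Hop1 at -0.38 (SE 0.069). None of these 9 called genes had overlapping libraries, and how many of all genes did not overlap was not counted.

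At 39 °C, 7 members were higher and 1 lower in exa1-1, against 15.2% and 13.7% of genes. HSP90.5 (0.48, SE 0.039), HSP90.6 (0.42, SE 0.059), HSP90.1 (0.41, SE 0.031, adjusted p = 8.5e-16), HSP90.3 (0.36, SE 0.034) and HSP90.2 (0.23, SE 0.031) were higher on the log2 scale. Hop3 (0.16, SE 0.037) and Hop2 (0.12, SE 0.044, adjusted p = 0.037) were higher by little, and both lost the call in a limma-trend fit of log2 FPKM with 0.11 (adjusted p = 0.28) and 0.07 (adjusted p = 0.52). Without any of 8 libraries (any at 39 °C from exa1-1, replicates 2 or 3 at 39 °C from wild type, replicate 2 at 23 °C from either genotype, or replicate 3 at 23 °C from exa1-1) the Hop2 call was lost, with values from 0.10 to 0.12. Hop1 was lower (-0.32, SE 0.066, adjusted p = 0.00014), at 47.3, 48.7 and 48.5 FPKM in wild type and 39.3, 36.6 and 39.9 FPKM in exa1-1. HSP90.7 stood at 345.3 to 354.7 FPKM and 350.9 to 356.8 FPKM, a log2 fold change of 0.02 (SE 0.036, adjusted p = 0.75). Scaled by library totals alone, 2482 genes were higher and 3565 lower, against 3170 and 2860.

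The heat responses differed by test between genotypes for 7 members, 4 with a higher and 3 with a lower value in exa1-1, against 8.78% and 8.10% of genes. Hop3 (0.61, SE 0.080, adjusted p = 8.3e-08), Hop2 (0.59, SE 0.078, adjusted p = 5.4e-08), HSP90.1 (0.37, SE 0.067, adjusted p = 3.5e-05) and HSP90.3 (0.17, SE 0.051, adjusted p = 0.017) were higher. HSP90.7 (-0.35, SE 0.052, adjusted p = 7.0e-07), HSP90.4 (-0.31, SE 0.107, adjusted p = 0.039) and HSP90.5 (-0.30, SE 0.057, adjusted p = 1.0e-04) were lower. For HSP90.5 and HSP90.7 the exa1-1 level was already higher at 23 °C, and for Hop2 and Hop3 it was lower there, so the 23 °C libraries enter these differences. HSP90.2 (0.00, SE 0.047), Hop1 (0.06, SE 0.095) and HSP90.6 (-0.17, SE 0.097) did not pass, though HSP90.6 did without replicate 1 of exa1-1 at 23 °C (-0.27, adjusted p = 0.041). Without replicate 2 of that group, its highest library, HSP90.6 was at -0.04 (adjusted p = 0.79). The HSP90.3 call was lost without replicate 1 of wild type at either temperature, replicates 2 or 3 of exa1-1 at 23 °C or replicate 3 of exa1-1 at 39 °C, with values from 0.10 to 0.16. The HSP90.4 call was lost without replicate 1 of wild type at either temperature, replicate 3 of wild type at 39 °C, replicate 3 of exa1-1 at 23 °C or replicates 1 or 3 of exa1-1 at 39 °C, with values from -0.32 to -0.24. DESeq2 did not call it either (-0.30, adjusted p = 0.050). Scaled by library totals alone, 1387 genes were higher and 2255 lower, against 1838 and 1695.

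Averaged over the 4 conditions, 5 members were higher and 1 lower in exa1-1, against 21.2% and 23.3% of genes. HSP90.5 (0.38, SE 0.020, adjusted p = 1.9e-24) and HSP90.6 (0.36, SE 0.030) were furthest up, followed by HSP90.7 (0.15, SE 0.019), HSP90.4 (0.15, SE 0.035) and HSP90.3 (0.05, SE 0.020, adjusted p = 0.025). Hop1 was lower (-0.22, SE 0.032, adjusted p = 3.3e-08). HSP90.1, which was lower in MS and higher at 39 °C, came to 0.00 (SE 0.024). Without replicate 3 of exa1-1 in MS, HSP90.3 was at 0.07 and HSP90.4 at 0.17. The mean of HSP90.3 no longer passed, at 0.05 each, without replicate 3 of wild type in MS, replicate 1 of exa1-1 in MS, replicate 2 of exa1-1 in NaCl, replicate 2 of wild type at 23 °C or replicate 1 of wild type at 39 °C. HSP90.2 (0.03, adjusted p = 0.25) passed without replicate 3 of exa1-1 in MS (0.04, adjusted p = 0.025), and Hop2 (-0.05, adjusted p = 0.099) passed without that library (-0.07), replicate 3 of wild type in MS (-0.07) or replicate 1 of exa1-1 at 23 °C (-0.08).

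**Figure D4:**
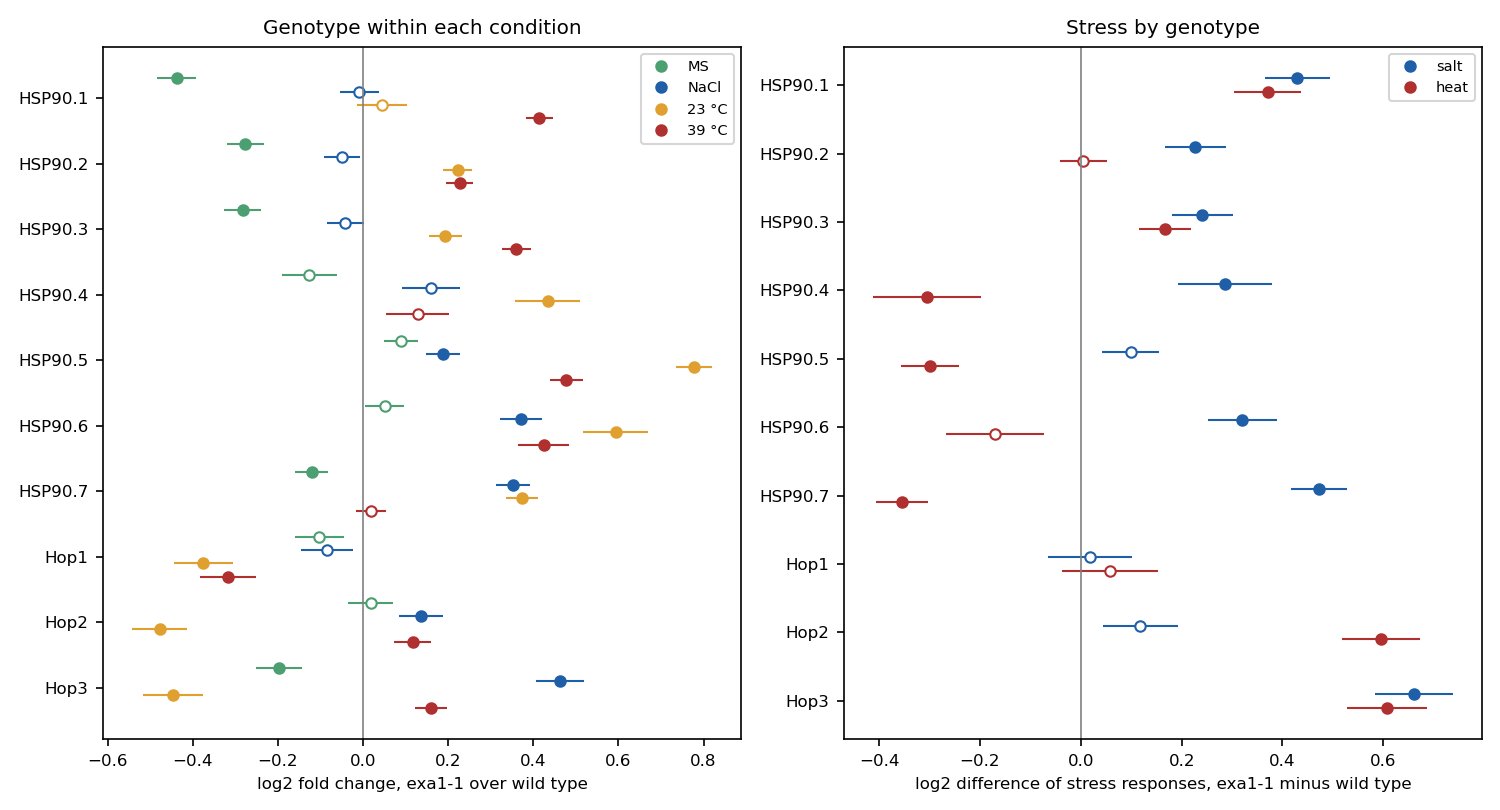
Log2 fold change of exa1-1 over wild type in each of the 4 conditions (left) and the difference of the stress responses, exa1-1 minus wild type (right), with bars of 1 SE. Filled symbols passed an adjusted p of 0.05. HSP90.1 runs from -0.44 in MS to 0.41 at 39 °C, and the salt differences of the 10 genes lie between 0.02 and 0.66.

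Genes that work with HSP90 were described from lists by function. Of 16 other co-chaperones, 11 were higher and 3 lower in wild-type heat, against 38.2% and 42.3% of all genes, with a median log2 fold change of 1.22. ROF2, an immunophilin of the FKBP class, rose most (9.73, SE 0.062), from 1.77 to 1504 FPKM, and its relative ROF1, which binds HSP90.1, followed (5.55, SE 0.043). P23-2, which holds the ATP-bound dimer closed, was lowest (-0.88, SE 0.137) and PAS1, another immunophilin, next (-0.37, SE 0.096). In exa1-1 heat 10 were higher and 2 lower, against 38.0% and 41.4%, with ROF2 at 9.87 and P23-2 at -1.19.

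In wild-type salt 5 of the 16 co-chaperones were higher and 6 lower, near the shares of 36.5% and 35.4% of all genes, with a median of -0.01. OEP61, a tetratricopeptide protein of the ER and chloroplast surface, was highest (0.53, SE 0.058), with PAS1 at 0.38. GI, which assists ZTL maturation, was lowest (-0.83, SE 0.075), with the cyclophilin SQN at -0.29. In exa1-1 salt 6 were higher and 5 lower, against 35.9% and 37.2% of all genes, with OEP61 and ROF2 both at 0.69 and SQN at -0.33.

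Among 11 client proteins, 6 were higher and 5 lower in wild-type heat, against 38.2% and 42.3% of all genes. The heat shock factors HSFA1E (2.97, SE 0.106) and HSFA1D (1.77, SE 0.123) led, and the auxin receptor TIR1 (-1.48, SE 0.059) and the immune receptor RPS2 (-1.16, SE 0.220) were lowest. In exa1-1 heat 5 were higher and 6 lower, against 38.0% and 41.4%, from 2.57 for HSFA1E to -1.41 for TIR1. In wild-type salt 7 clients were higher and 0 lower in the edgeR test, against 36.5% and 35.4% of all genes, with HSFA1E at 1.88 (SE 0.106) and RPS2 at 1.299 (SE 0.088), and 1 was lower at an unadjusted p under 0.05. In exa1-1 salt 8 were higher and 0 lower in the edgeR test, against 35.9% and 37.2%. At an unadjusted p under 0.05 the counts in exa1-1 salt were also 8 and 0. The shares of all genes at an unadjusted p were not counted.

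The HSP70 partners, which pass clients to HSP90, rose in heat. All 7 cytosolic HSP70 and J-protein genes were higher in wild-type heat, against 38.2% of all genes, from 2.74 (HSC70-1, SE 0.036) to 10.13 (HSP70-5, SE 0.053). All 7 organellar HSP70 genes were called higher as well. BIP3 had only 6 to 10 counts per library at 23 °C and 13 to 20 at 39 °C, and the other 6 ran from chloroplast CPHSC70-1 (2.19, SE 0.040) to mitochondrial MTHSC70-2 (7.32, SE 0.058). In wild-type salt the cytosolic list had 5 higher and 1 lower, against 36.5% and 35.4% of all genes, led by HSP70-4 (0.95, SE 0.045). The organellar list had 3 higher, BIP3 among them, and 2 lower, the latter being the ER chaperones BIP1 (-1.26, SE 0.077) and BIP2 (-1.23, SE 0.057), in the compartment of HSP90.7.

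In exa1-1 salt the organellar list had 4 higher and 3 lower, against 35.9% and 37.2% of all genes. BIP1 and BIP2 were at -0.73 (SE 0.076) and -0.56 (SE 0.056) there. Their differences between genotypes of 0.53 (adjusted p = 0.0032) and 0.68 (adjusted p = 4.7e-07) had the sign of the HSP90.7 difference. Of the 7 genes in the list, 4 had a higher and 1 a lower value in this difference, against 10.6% and 9.36% of all genes. BIP3, a stress-induced BiP at 0.519 FPKM in wild-type MS and 0.0184 FPKM in exa1-1 MS, had 0 to 2 counts per library in the latter, and no fold is given for it. Of the 5 genes that sense or signal unfolded ER proteins, 4 were higher and 0 lower in wild-type salt by the edgeR test. The shares of all genes were 36.5% and 35.4%, and BZIP60 was highest of the 5 (1.42, SE 0.047). At an unadjusted p under 0.05, where the shares of all genes were not counted, 4 were higher and 0 lower as well. The counts were 4 and 0 in exa1-1 too, against 35.9% and 37.2%, with BZIP60 at 1.42 (SE 0.049). In the difference between genotypes 0 of the 5 passed the edgeR test, against 10.6% of all genes with a higher and 9.36% with a lower value. For 5 genes this count is near those shares. Their log2 differences ran from -0.06 to 0.08, and 0 had an unadjusted p under 0.05. In wild-type heat 3 were higher and 1 lower, against 38.2% and 42.3%, from BZIP28 (3.18, SE 0.056) to IRE1B (-0.48, SE 0.129).

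**Figure D5:**
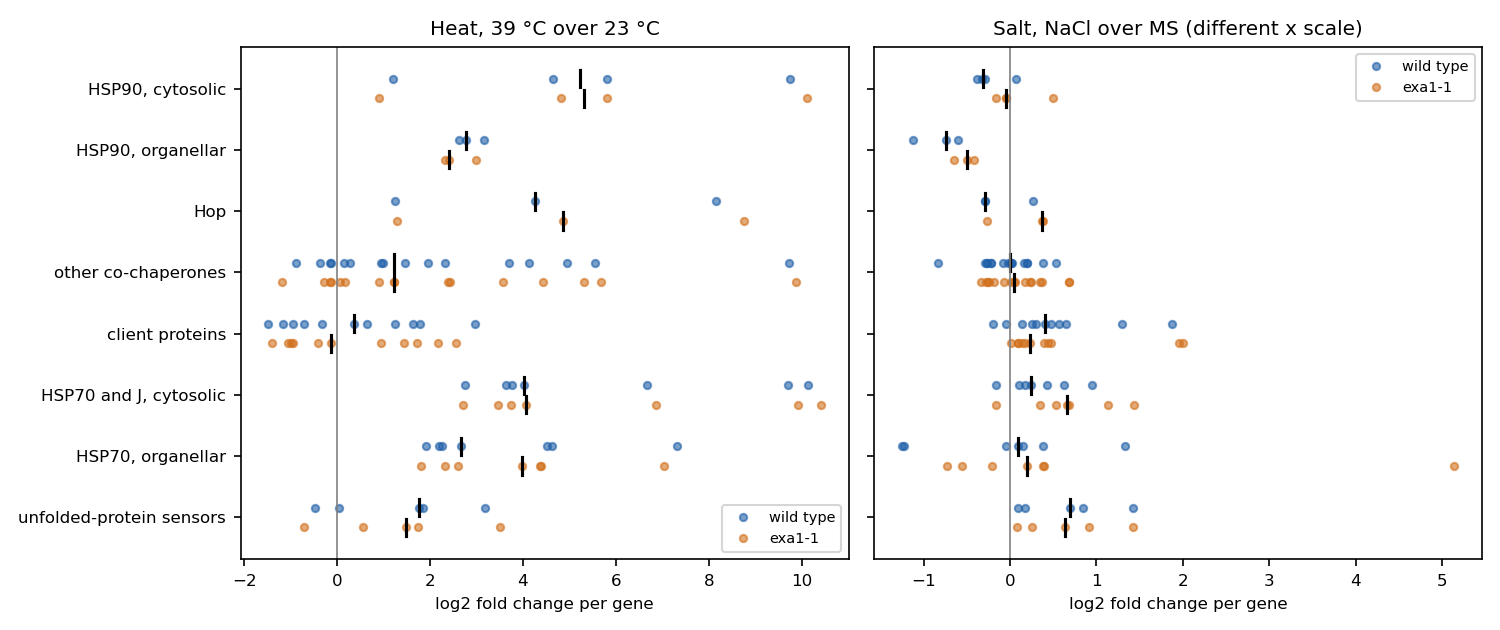
Log2 fold change of every gene of the HSP90 and Hop groups and of 5 partner lists in heat (left) and salt (right, on a different scale). Points are genes (blue, wild type; orange, exa1-1) and black bars are medians of the list. In wild-type heat the medians are 5.23 for cytosolic HSP90, 2.77 for organellar HSP90, 4.26 for Hop, 1.22 for other co-chaperones and 0.35 for clients.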

How the data were processed

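Polysome-bound mRNA of 24 libraries was sequenced by the authors, strand-specific per the labels' protocols. HISAT2 2.0.4, HTSeq 0.6.1p1 and the build TAIR10 are named in the submitters' processing notes; the annotation release and the strand, multiple-hit and overlap settings are not given in the sources used here. The authors deposited counts for 32833 genes and FPKM for 27683, which equal the count times a gene constant over the library total (largest relative difference 1.26e-09 over 16405 genes). Among 276 pairs of libraries 0 were identical.

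Counts were fitted with edgeR 4.0.16 in R 4.3.3 (filterByExpr with minimum count 10 and minimum total 15, TMM, robust quasi-likelihood), by experiment (12 libraries) or, for 23 °C against MS and the mean of 4 conditions, over all 24. Adjusted p-values are Benjamini-Hochberg over all genes tested, called under 0.05. Biological variation between replicates (common coefficient) came to 0.0455 for salt and 0.0539 for heat. Levels are deposited FPKM divided by the library's TMM factor, and shares use FPKM as deposited. The fraction of all genes without overlapping libraries, or with an unadjusted p under 0.05, was not counted.

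Alternatives were DESeq2 1.42.0, scaling by RLE or by library totals alone, limma 3.58.1 with a trend on log2 FPKM plus 1 or 0.1, other filters, a replicate block, other samples in the fit and leaving out each library. Same-numbered libraries had residual correlations from -0.0385 to 0.069, with 0 of 36 above 0.1, so they were not treated as pairs. Coordinates, sequences and motifs come from RefSeq TAIR10.1 with Python 3.11.15; the window before the translation start was added after the shorter one had been searched. The members and lists were chosen with earlier results of these data known. All members are named, and of each partner list up to 4 genes per stress comparison, the 2 largest and the 2 smallest changes. The markers are given as sums.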

Additional observations from a re-analysis of the deposited data

Results flagged for a closer look

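The response to stress differed between exa1-1 and wild type, by the edgeR test of the difference itself, for 14 pairs of gene and stress. For salt 7 of the 10 members were higher and 0 lower, against 10.6% and 9.36% of all genes. For heat 4 of the 10 were higher and 3 lower, against 8.78% and 8.10%. For salt, the log2 response in exa1-1 minus that in wild type was 0.43 for HSP90.1, 0.23 for HSP90.2, 0.24 for HSP90.3, 0.29 for HSP90.4, 0.32 for HSP90.6, 0.47 for HSP90.7 and 0.66 for Hop3. For heat it was 0.37 for HSP90.1, 0.17 for HSP90.3, -0.31 for HSP90.4, -0.30 for HSP90.5, -0.35 for HSP90.7, 0.59 for Hop2 and 0.61 for Hop3. HSP90.7 and HSP90.4 thus had a higher value in exa1-1 for salt and a lower one for heat, and whether these differences themselves differ was not tested. The calls of HSP90.4 for both stresses and of HSP90.3 for heat were lost without some single libraries. DESeq2 did not call HSP90.4 for heat.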

How the results depend on the processing

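HSP90.4 in exa1-1 heat changed sign when library totals alone were used (-0.058) and in limma-trend fits of log2 FPKM plus 1 (-0.054) or 0.1 (-0.058); neither of these carries the TMM scaling. As a share of summed counts rather than FPKM, HSP90.1 held 8.88% of the cytosolic sum in wild-type MS, 11.5% in wild-type NaCl, 8.01% in exa1-1 MS, 11.7% in exa1-1 NaCl, 4.23% in wild type at 23 °C, 48.7% in wild type at 39 °C, 3.75% in exa1-1 at 23 °C and 51.4% in exa1-1 at 39 °C, since counts are not divided by gene length. The number of members called in either direction together stayed within 1.5 times the reported one in every comparison under each alternative run. By direction this did not hold for 3 comparisons. In exa1-1 against wild type in MS, 5 lower and 0 higher became 3 and 2 with library totals alone and 3 and 1 in both limma-trend fits, and 1 was higher without replicate 3 of exa1-1 in MS. In wild-type salt, 1 higher became 0 with library totals alone and in both limma-trend fits. For the mean of 4 conditions, 1 lower became 2 without any of 3 libraries. With a replicate block, all 130 member results kept their direction and their side of the threshold, and HSP90.7 in wild-type salt was -1.13 as before. Leaving out each library in turn kept 1872 results, while 37 lost and 11 gained a call. The lowest members, HSP90.1 and Hop3 at 23 °C, rested on 191 to 318 counts per library.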

Other observations

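The genes with patterns most like those of 3 members were sought by Pearson correlation of log2(CPM + 1) over the 24 libraries, among the 13549 genes whose mean FPKM reached 5. These values are descriptions, and the points share groups and libraries. For HSP90.1 they were AT1G30070 (r = 0.9975), ROF2 (0.9973), AT3G07090 (0.9966), the heat shock factor gene HSFA2 (0.9961) and BOB1 (0.9958), whose product is a small chaperone needed for development. For Hop3 they were ROF2 (0.9972), AT1G30070 (0.9959), ATERDJ3A (0.9943), the co-activator gene MBF1C (0.9939) and HSP101 (0.9939), which encodes the disaggregase of heat tolerance. ROF2 and AT1G30070 stood in both lists.

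HSP90.7 had other companions. The nearest was CNX1 (r = 0.9967), a calnexin that holds glycoproteins in the ER, followed by SDF2 (0.9914), UTR1 (0.9873), SYNC1 (0.9794) and the protein disulfide isomerase gene PDIL2-3 (0.9786). In wild-type salt the mean deposited FPKM of CNX1 was 217.0 in MS and 58.9 in NaCl, that of SDF2 72.9 and 27.6, and that of PDIL2-3 54.0 and 26.3. Among the members themselves, the correlation with HSP90.1 was 0.9944 for HSP90.2, 0.9938 for Hop3, 0.8036 for HSP90.7, 0.2442 for Hop1 and -0.125 for HSP90.4, on the same scale. All these correlations use CPM scaled by library totals alone, and correlations with TMM scaling were not computed. With TMM, HSP90.4 went from 8.83 to 20.4 FPKM in wild-type heat and Hop1 from 20.4 to 48.2 FPKM. The low values for these 2 genes are thus given for the scale without TMM, and whether they stay low with TMM is not known.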
